A study of Homo sapiens with 4 samples.

Results

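Aminoacyl-tRNA synthetase mRNAs were followed in RNA that co-purified with the motor protein KIF5A. The group was set by name and holds 38 of the 60719 genes listed: 19 cytosolic enzyme genes, 16 mitochondrial enzyme genes (symbols ending in 2) and the 3 scaffold genes AIMP1, AIMP2 and EEF1E1. All 38 were found in the count tables, and 37 had enough counts to be tested. VARS2, the mitochondrial valyl enzyme, was the exception, with 7 and 0 counts in the WT libraries and 1 and 3 in the d27 libraries.

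The cells were SK-N-AS, an established human neuroblastoma line, transfected with a plasmid for V5-tagged KIF5A in its wild-type form (WT) or in the mutant form named d27, and taken a day later. V5 is a short peptide tag, and beads carrying an antibody to it pulled down KIF5A with whatever RNA was bound. There were 2 libraries per construct. The labels name no deletion of the cells' own KIF5A, no separate culture per replicate and no input or mock precipitate used here, so p-values measure the spread between libraries, which may be technical. The series compares the mRNA partners of both forms of a protein linked to amyotrophic lateral sclerosis.

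Aminoacyl-tRNA synthetases join each amino acid to its own tRNA, the step that gives the genetic code its meaning at the ribosome. Separate sets of nuclear genes supply the cytosol and the mitochondrion, and GARS1 and KARS1 each serve both compartments. In the cytosol several of the enzymes assemble with AIMP1, AIMP2 and EEF1E1 into the multi-tRNA synthetase complex, while the rest work outside it. In peripheral nerve, dominant variants of GARS1, YARS1, AARS1 and HARS1 are known causes of Charcot-Marie-Tooth neuropathy. Many cytosolic synthetase genes are also targets of ATF4, the transcription factor of the amino acid response.

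Reads assigned to genes came to 8142869 and 10811134 in WT replicates 1 and 2 and to 18335151 and 10483082 in d27 replicates 1 and 2. KIF5A itself stood at 83658 and 166138 CPM (the count relative to library size, scaled by TMM factors that correct for library composition) in WT and at 108245 and 109266 CPM in d27. It overlapped between the groups, with an edgeR adjusted p of 0.821. Of the neuroblastoma markers checked, VIM, FN1, CD44 and HAND2 were present in all 4 libraries, and TH was at or under 0.57 CPM. EPCAM, CD3E and HBB had no counts. PTPRC, a leukocyte marker, stood at 190 and 162 CPM in WT and 101 and 79.8 CPM in d27 (edgeR adjusted p 0.0433), and made up nearly all of the summed level of the 4 leukocyte and blood markers (164 to 190 CPM in WT, 82.3 to 104 CPM in d27). CD14 lay the other way, at 0.34 and 1.87 CPM in WT and 2.94 and 2.51 CPM in d27. KRT18, an epithelial keratin, was also lower (adjusted p 0.0188). HTSeq entries not assigned to a single gene made up 47.6% and 47.3% in WT and 25.9% and 36.8% in d27. Reads with more than 1 alignment were 23.7% and 22.8% in WT and 9.10% and 17.1% in d27. Those on no annotated gene were 20.6% and 21.8% in WT and 13.5% and 16.7% in d27, and the rest fell on more than 1 gene. The part of these in the results below was not tested.

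Across the 14909 genes tested, edgeR's quasi-likelihood test at a Benjamini-Hochberg adjusted p of 0.05 called 8.00% higher and 3.70% lower in d27 than in WT. Of the 37 synthetase and scaffold genes tested, 3 fell and 0 rose. The genes that fell were EPRS1, FARSA and VARS1, all cytosolic. The median log2 fold change (d27 over WT) of the 37 was -0.20, beside -0.00043 for all genes tested, with 23 below 0 and 14 above. Both d27 libraries lay below both WT libraries for 15 of them and above for 7, beside 29.8% and 31.4% of all genes tested. At an unadjusted p under 0.05 the counts were 9 lower and 3 higher, against 13.6% and 17.0% of all genes. In these pooled cells, fewer cells carrying a transcript and less of it per cell cannot be told apart, and neither can be told apart from weaker capture with the bait.

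**Figure D1:**
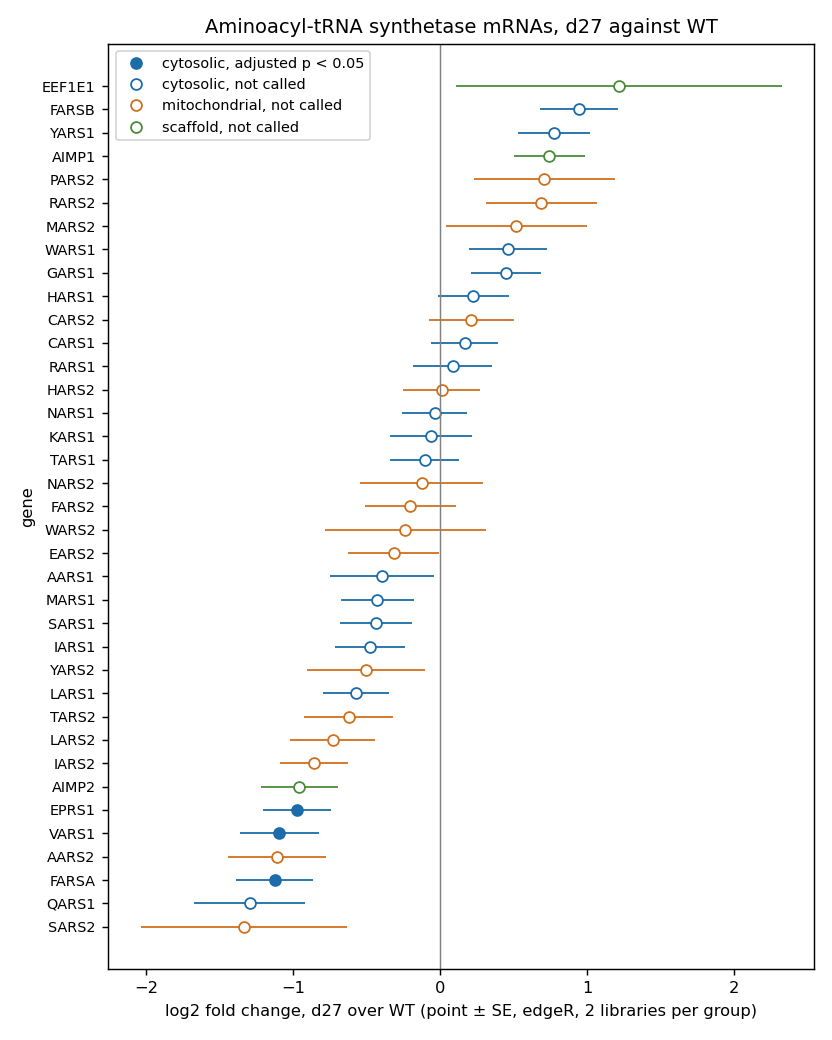
The log2 fold change of d27 over WT (x axis, point with SE, 2 libraries per group) for each of the 37 tested genes (y axis), coloured by class and filled where the adjusted p is under 0.05. The 3 filled points, EPRS1, VARS1 and FARSA, sit near -1, and FARSB and YARS1 lie on the opposite side of 0 with open symbols.

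EPRS1 (chromosome 1, 219968601 to 220046658, minus strand, GRCh38) encodes the fused enzyme that charges both glutamic acid and proline. It stood at 322 and 323 CPM in WT and at 155 and 173 CPM in d27. The WT libraries agreed closely and both d27 libraries lay far below them. EPRS1 fell by 0.97 ± 0.23 (SE) on the log2 scale, which is 1.97-fold, with an edgeR adjusted p of 0.0361.

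VARS1 (chromosome 6, 31777518 to 31795953, minus strand) is the cytosolic valyl enzyme, known to bind elongation factor subunits. Its levels were 315 and 423 CPM in WT and 152 and 194 CPM in d27. The groups did not overlap, although the WT libraries differed between themselves by more than those of EPRS1. The fall was 1.10 ± 0.27 on the log2 scale, or 2.14-fold, with an edgeR adjusted p of 0.0402.

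FARSA (chromosome 19, 12922479 to 12934037, minus strand) encodes the catalytic alpha subunit of the phenylalanyl enzyme, a tetramer of alpha and beta subunits. It was at 145 and 166 CPM in WT and at 59.1 and 83.4 CPM in d27, again with no overlap. FARSA fell by 1.13 ± 0.26 on the log2 scale, 2.18-fold, at an edgeR adjusted p of 0.0343. With 1 library left out at a time all 3 genes kept their sign, but the calls did not all last. EPRS1 had an adjusted p of 0.0687 with WT replicate 2 left out, 0.237 when d27 replicate 1 was dropped and 0.0813 when d27 replicate 2 was. FARSA lost its call without WT replicate 2 (0.0637) or d27 replicate 1 (0.201), and VARS1 without the same libraries (0.109 and 0.231). DESeq2 called all 3 and also 4 more lower (QARS1, AARS2, IARS2, AIMP2) and 3 higher (FARSB, YARS1, AIMP1), where it called 9.50% of all genes lower and 14.6% higher.

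**Figure D2:**
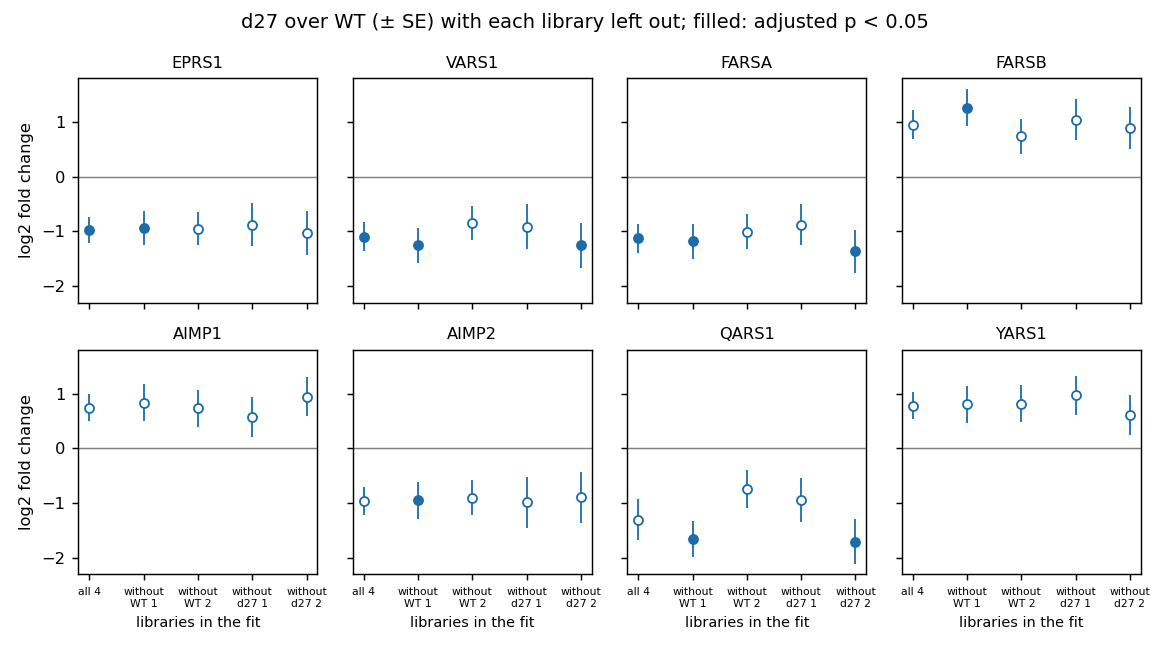
Log2 fold changes of d27 over WT (y axis, ± SE) of 8 genes with all 4 libraries and with each library left out in turn (x axis), filled where the adjusted p is under 0.05. The sign of each gene stays the same throughout, while EPRS1, VARS1 and FARSA have open symbols without d27 replicate 1.

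The other subunit of the phenylalanyl enzyme lay on the opposite side. FARSB (chromosome 2, 222570536 to 222656337, minus strand), the beta subunit, was at 55.6 and 39.3 CPM in WT and at 86.1 and 96.3 CPM in d27. Both d27 libraries exceeded both WT libraries, and the log2 fold change was 0.94 ± 0.27 with an edgeR adjusted p of 0.0575, which missed the threshold. The count of FARSB per count of FARSA was 0.384 and 0.237 in the WT libraries and 1.46 and 1.15 in the d27 libraries. FARSA reads were thus the more numerous in both WT libraries and FARSB reads in both d27 libraries. The ratio shifted 4.31-fold, and the exact two-sided permutation test gave p = 0.333, the smallest that 2 libraries against 2 allow. The ratios of HARS1 to HARS2 and of GARS1 to KARS1 gave the same p with shifts of only 1.16-fold and 1.45-fold. The p therefore does not set the phenylalanyl pair apart. That pair was singled out after its values were seen, and a ratio within a library does not depend on how the library is scaled.

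The mRNAs of these subunits differ in base composition from their first codons. The first 90 coding bases of each, from GENCODE 29 transcripts, are shown with the last base of every codon in capitals:

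FARSA: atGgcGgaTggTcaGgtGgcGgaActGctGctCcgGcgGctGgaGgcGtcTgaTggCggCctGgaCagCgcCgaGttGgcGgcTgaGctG

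FARSB: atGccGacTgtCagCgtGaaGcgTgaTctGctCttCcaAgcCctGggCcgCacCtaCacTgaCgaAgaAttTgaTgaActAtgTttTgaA

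G or C filled 63 of these 90 bases in FARSA and 45 in FARSB, and 24 against 16 of the 30 last codon positions. Over the whole representative transcript the GC content was 61.4% in FARSA and 41.6% in FARSB. Their coding lengths are closer, at 1524 and 1767 bases.

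**Figure D3:**
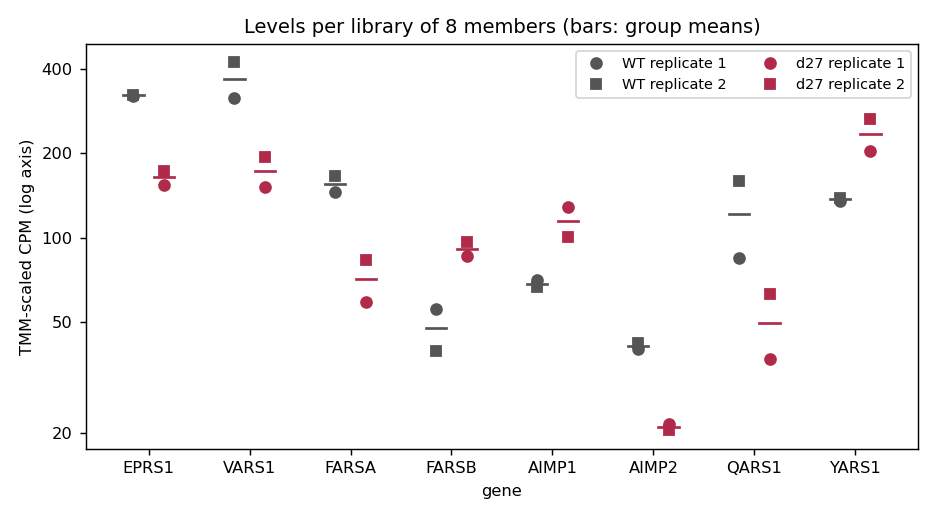
TMM-scaled CPM (y axis, log scale) in each of the 4 libraries for 8 genes (x axis), with bars at group means. In d27 FARSB lies above FARSA, the reverse of WT, AIMP1 and AIMP2 lie further apart, and the EPRS1 and VARS1 points of d27 lie below those of WT.

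The multi-tRNA synthetase complex is represented by 7 enzyme genes and the 3 scaffold genes. Of these 10, 1 fell (EPRS1) and 0 rose, beside 3.70% and 8.00% of all genes tested. The median log2 fold change of the 10 was -0.45. All of the 7 enzyme genes except RARS1 were below 0, with a median of -0.48. Their median coding length was 2700 bases, against 1705.5 bases for the 12 cytosolic enzyme genes outside the complex. With the offset for coding length described below, EPRS1 was at -0.37, QARS1 at -0.98, LARS1 at -0.16, IARS1 at 0.026 and KARS1 at 0.059. The part of coding length in the signs of these genes was not tested. QARS1, the glutaminyl enzyme, gave 84.4 and 159 CPM in WT and 36.7 and 62.8 CPM in d27. The lower WT library lay nearer to the higher d27 library than to its own replicate, and the log2 fold change of -1.30 ± 0.38 had an edgeR adjusted p of 0.0629. LARS1, the leucyl enzyme and a known leucine sensor for mTORC1, was at 261 and 269 CPM in WT and 177 and 180 CPM in d27. That separation was tight within each group but modest in size, at -0.57 ± 0.23 (adjusted p 0.133). IARS1 (isoleucyl) and MARS1 (methionyl) had log2 fold changes of -0.48 and -0.43. KARS1 (lysyl) and RARS1 (arginyl) lay at -0.06 and 0.09 with overlapping groups, and none of these 5 was called.

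The estimates of the scaffold genes differed in sign. AIMP1, which is also secreted as a cytokine precursor, was at 70.3 and 66.6 CPM in WT and at 129 and 100.2 CPM in d27. AIMP2, the core scaffold that also binds parkin, was at 39.9 and 41.9 CPM in WT and at 21.6 and 20.5 CPM in d27. Each gene separated the groups, AIMP1 upward with a log2 fold change of 0.74 ± 0.24 (adjusted p 0.0836) and AIMP2 downward with -0.96 ± 0.26 (adjusted p 0.0520), and neither passed the threshold. The count of AIMP1 per count of AIMP2 was 1.76 and 1.59 in WT and 5.97 and 4.90 in d27, a 3.23-fold shift with the same smallest exact permutation p of 0.333, in a pair also picked after its values were seen. EEF1E1, which links the complex to elongation factor 1, had 2.39 and 0.10 CPM in WT and 3.43 and 2.32 CPM in d27. These levels overlapped between the groups and had a wide error (log2 fold change 1.22 ± 1.11). Without WT replicate 1 EEF1E1 was called higher, at 4.72 against the single near-zero WT library.

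The 12 cytosolic enzyme genes outside the complex were evenly split, with 6 below 0 and 6 above and a median log2 fold change of 0.06. FARSA and VARS1 were the 2 that fell, and 0 rose, beside 3.70% and 8.00% of all genes tested. YARS1, the tyrosyl enzyme, was at 136 and 138 CPM in WT and at 204 and 265 CPM in d27. The d27 libraries were both higher but spread, and the log2 fold change of 0.78 ± 0.24 had an adjusted p of 0.0769. GARS1, the glycyl enzyme, stood at 259 and 283 CPM in WT and 342 and 397 CPM in d27, without overlap. Its log2 fold change was 0.45 ± 0.24 (adjusted p 0.248), close to that of WARS1, the tryptophanyl enzyme, at 0.46 ± 0.27 (adjusted p 0.275). AARS1 (alanyl) was at 223 and 447 CPM in WT and at 217 and 292 CPM in d27. Its WT libraries lay far apart and the groups overlapped, and its log2 fold change of -0.40 ± 0.36 reversed to 0.21 without WT replicate 2. SARS1 (seryl) lay at -0.44, and HARS1 (histidyl), CARS1 (cysteinyl), NARS1 (asparaginyl) and TARS1 (threonyl) all lay between -0.11 and 0.23, none of them called.

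Among the 15 mitochondrial enzyme genes tested, 0 rose and 0 fell by edgeR, beside 8.00% and 3.70% of all genes tested. At an unadjusted p under 0.05, 0 were higher and 3 lower, beside 17.0% and 13.6% of all genes. DESeq2 called 0 higher and 2 lower, beside 14.6% and 9.50%. With 15 genes, the counts of lower genes are near those shares. The median log2 fold change of the 15 was -0.24, with 10 below 0, against -0.11 with 12 of 19 below 0 for the cytosolic enzymes. IARS2, the mitochondrial isoleucyl enzyme, was at 157 and 183 CPM in WT and at 89.6 and 97.8 CPM in d27. Every d27 value lay well under every WT value, and the log2 fold change of -0.86 ± 0.23 had an adjusted p of 0.0509. AARS2, the alanyl enzyme, was at 43.2 and 75.6 CPM in WT and at 23.8 and 31.3 CPM in d27, a log2 fold change of -1.11 ± 0.34 (adjusted p 0.0695). LARS2 (leucyl) followed at -0.73 and TARS2 (threonyl) at -0.62. On the other side were PARS2 (prolyl) at 0.71, RARS2 (arginyl) at 0.69 and MARS2 (methionyl) at 0.52, each with an SE of 0.38 or more. RARS2 was called only without WT replicate 1. SARS2 (seryl) had the lowest estimate of the 37, -1.34 ± 0.70, at 3.43 CPM or less in every library.

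Summed over its genes, the mitochondrial set came to 464 and 561 CPM in WT and to 349 and 409 CPM in d27. The groups did not overlap, and the log2 ratio of the means was -0.44. The cytosolic set came to 3233 and 3791 CPM in WT and to 2663 and 3314 CPM in d27, a log2 ratio of -0.23. Here d27 replicate 2 exceeded WT replicate 1. IARS2 alone makes up a large part of the mitochondrial sum, with 157 and 183 CPM in WT and 89.6 and 97.8 CPM in d27. With IARS2 taken out, the groups overlap in the mitochondrial sum as well.

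The enzymes for the same amino acid were then paired, 17 cytosolic and mitochondrial pairs in all, with EPRS1 and FARS2 in more than 1. Of the 16 pairs tested, 11 had log2 fold changes of the same sign in both compartments. Most genes of both classes were below 0 (12 of 19 cytosolic, 10 of 15 mitochondrial). Many pairs would therefore share a sign in any case, and a link within pairs was not tested. The cysteinyl pair was the closest, at 0.17 (CARS1) and 0.21 (CARS2). Next came the asparaginyl pair, at -0.04 (NARS1) and -0.13 (NARS2), and the leucyl pair, at -0.57 (LARS1) and -0.73 (LARS2). The isoleucyl pair shared its sign but lay further apart, at -0.48 (IARS1) and -0.86 (IARS2). The tyrosyl pair pointed apart, at 0.78 (YARS1) and -0.50 (YARS2), as did the methionyl pair, at -0.43 (MARS1) and 0.52 (MARS2). The partners of the genes that fell were EARS2 (glutamyl) at -0.32 and PARS2 at 0.71 for EPRS1, and FARS2 (phenylalanyl) at -0.20 for FARSA. All of these partners missed the threshold, and differences within pairs were not tested.

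Levels between genes were compared per kilobase of annotated exon, as the mean over 4 libraries with its range. GARS1 was the highest at 77.1 CPM per kb (62.3 to 95.6), followed by AARS1 at 65.5 (48.2 to 99.3), KARS1 at 48.0 (37.2 to 56.7), FARSA at 46.6 (24.3 to 68.1) and EPRS1 at 44.6 (28.4 to 59.3). The ranges of neighbours in this order overlap. In WT alone AARS1 gave 49.6 and 99.3 and GARS1 62.3 and 68.2 CPM per kb. Per kb of the representative transcript GARS1 stayed the highest, but KARS1 ranked 2, AARS1 3, VARS1 4, FARSA 6 and EPRS1 11. The lowest were VARS2 at 0.033, SARS2 at 0.70, EEF1E1 at 0.98, WARS2 (tryptophanyl) at 1.94 and MARS2 at 2.21 CPM per kb. The 0 counts of VARS2 in WT replicate 2 allow up to 0.312 CPM (3 counts) by counting error alone. In 16 of the 17 pairs the cytosolic enzyme was the higher per kb of exon, with a median ratio of 6.48. The isoleucyl pair was the exception, with IARS2 at 31.6 and IARS1 at 26.6 CPM per kb, and their ranges overlap. Per kb of the representative transcript that order turned round (IARS1 42.3, IARS2 37.0), and the cytosolic enzyme was the higher in all 17 pairs.

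Coding length and GC content, which did not enter the choice of genes, were set against the log2 fold changes. Coding length varied inversely with the fold change over the 37 genes (Pearson r with log2 length -0.50, Spearman rho -0.41). It did so over all 12299 protein-coding genes tested as well (r with log2 length -0.36, rho -0.40). The 9 genes with a coding length of at least 2500 bases were all below 0, with log2 fold changes between -1.11 and -0.40 and a median of -0.73. They were EPRS1, VARS1, LARS1, IARS1, MARS1 and AARS1 and the mitochondrial IARS2, AARS2 and LARS2. Of all protein-coding genes of that length, 2115 of 2622 were below 0, with a median of -0.59. The 28 shorter members split evenly, 14 below and 14 above 0, beside 3712 below and 5965 above among all shorter protein-coding genes. This length limit was chosen after the values were seen.

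GC content of the transcript also varied inversely with the fold change over the 37 genes (r -0.48, rho -0.39), but hardly over all protein-coding genes (r -0.05, rho -0.08). These points share the same 4 libraries and are described, not tested. In a fit with an offset for GC content, coding length and 3' UTR length in each library, added after seeing the data, EPRS1 moved to -0.37 (edgeR adjusted p 0.238) and VARS1 to -0.46 (adjusted p 0.149). Both lost their call. FARSA stayed at -1.17 (adjusted p 0.00719), and FARSB was called higher at 0.82 (adjusted p 0.0376). AIMP2 (adjusted p 0.0282) and AARS2 at -0.90 were also called lower in that fit, while AIMP1 moved to 0.24.

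**Figure D4:**
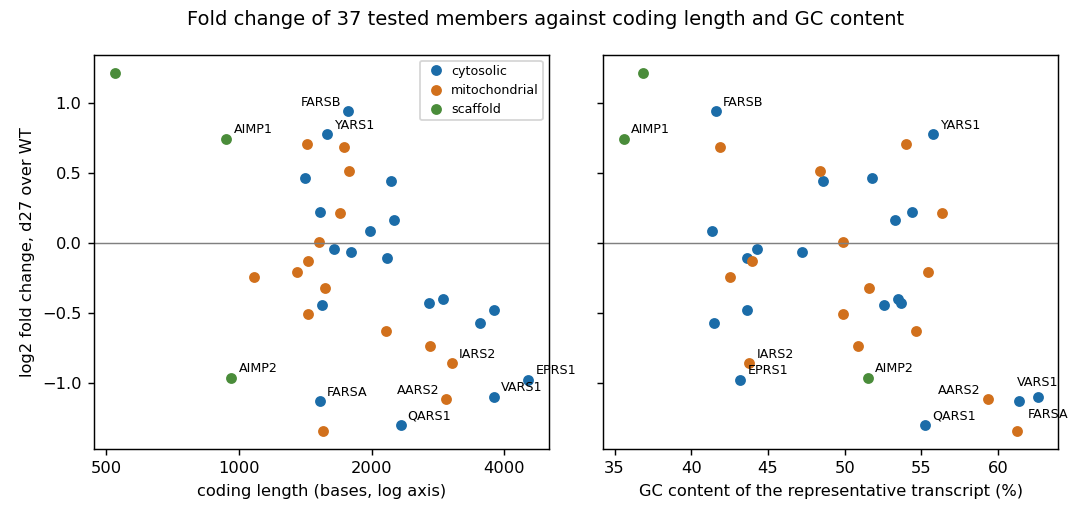
Log2 fold change of d27 over WT (y axis) of the 37 tested genes against coding length in bases (left, log axis) and GC content in percent of the representative transcript (right), coloured by class. The 9 genes of 2500 coding bases or more all lie below 0 in the left panel, and FARSA and FARSB lie at similar lengths but on opposite sides of 0.

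ATF4 and its targets offer a comparison, since ATF4 drives synthetase genes in the amino acid response by binding an element whose core can be written TGATGNAA. The 300 bases around each start site (250 before to 50 after, RefSeq, GRCh38.p14) were searched for it on both strands, where the reverse complement reads TTNCATCA. It was found in 7 of 16 cytosolic enzyme genes with an entry (43.75%), in 1 of 14 mitochondrial ones (7.14%) and in none of the 3 scaffold genes. Of the 22 amino acid response genes with an entry 5 held it (22.7%), and of the 5 with an entry among the 6 that rose, 0 did. The share was 4.46% of all 27305 genes in the table and 2.76% of the 10633 of them tested here. LARS1, VARS1, YARS1, AARS2 and VARS2 had no entry. The windows below, 30 bases each and written 5′ to 3′ on the gene's strand, show the element in capitals for the 8 synthetase genes and for ASNS and CHAC1, classical ATF4 targets that were not called here:

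AARS1 (chr16:70289675-70289704, minus strand): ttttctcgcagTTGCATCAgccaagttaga

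CARS1 (chr11:3057407-3057436, minus strand): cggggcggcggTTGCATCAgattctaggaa

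GARS1 (chr7:30594834-30594863, plus strand): ttacgcggcgaTTTCATCAtgctccgagcc

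IARS1 (chr9:92293692-92293721, minus strand): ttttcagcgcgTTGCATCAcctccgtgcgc

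MARS1 (chr12:57488053-57488082, plus strand): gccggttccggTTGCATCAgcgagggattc

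NARS1 (chr18:57621804-57621833, minus strand): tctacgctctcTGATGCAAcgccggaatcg

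TARS1 (chr5:33440956-33440985, plus strand): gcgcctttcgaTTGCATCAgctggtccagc

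YARS2 (chr12:32756076-32756105, minus strand): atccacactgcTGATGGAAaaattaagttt

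ASNS (chr7:97872458-97872487, minus strand): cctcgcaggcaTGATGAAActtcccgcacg

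CHAC1 (chr15:40953251-40953280, plus strand): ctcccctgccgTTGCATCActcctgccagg

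A match describes these letters only, not a bound site. Of the 25 amino acid response genes tested, 6 rose and 0 fell, beside 8.00% and 3.70% of all genes tested. Their median log2 fold change was 0.58, with 19 above 0 and 6 below. PHGDH lay at -0.74, SLC3A2 at -0.52 with both d27 libraries below both WT libraries, and DDIT3 at 0.03, none of them called. ATF4 itself stood at 141 and 196 CPM in WT and at 836 and 855 CPM in d27. The d27 libraries were several times above WT, and ATF4 rose by 2.32 ± 0.28 on the log2 scale (edgeR adjusted p 0.00726). SESN2, a leucine sensor, rose by 2.38, ATF5 by 1.99, the proline enzyme PYCR1 by 1.89, the leucine carrier SLC7A5 by 1.25 and the folate enzyme MTHFD2 by 1.07. MTHFD2 was called in none of the fits that left out WT replicate 2, d27 replicate 1 or d27 replicate 2 (adjusted p between 0.0523 and 0.0943). It also lost its call with the offset for GC content and exon length (0.78, adjusted p 0.0549) and with the one that includes coding length (0.50, adjusted p 0.197). SLC7A5 lost its call with the latter (0.78, adjusted p 0.0723), which left 4 response genes called higher.

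Of the 7 cytosolic synthetase genes with the element, 0 rose and 0 fell by edgeR, DESeq2 or at an unadjusted p under 0.05. Their median log2 fold change was -0.11, within -0.48 to 0.45. Among all genes tested, edgeR called 8.00% higher and 3.70% lower, and DESeq2 14.6% and 9.50%. At the unadjusted p the shares were 17.0% and 13.6%. With only 7 genes, 0 calls by edgeR is near its shares. The 9 cytosolic genes with a promoter entry and no element had a median of -0.06, and EPRS1 and FARSA were the 2 of them that fell. ASNS was low, at 2.05 and 0.73 CPM in WT and 1.58 and 2.60 CPM in d27, and CHAC1 gave a log2 fold change of 0.58 ± 0.43, and neither was called. The difference between these groups of genes was not tested. All these values are of RNA co-purified with KIF5A, with no input used here. Changes in transcription and in capture with the bait therefore cannot be told apart, and ATF4 activity was not measured.

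**Figure D5:**
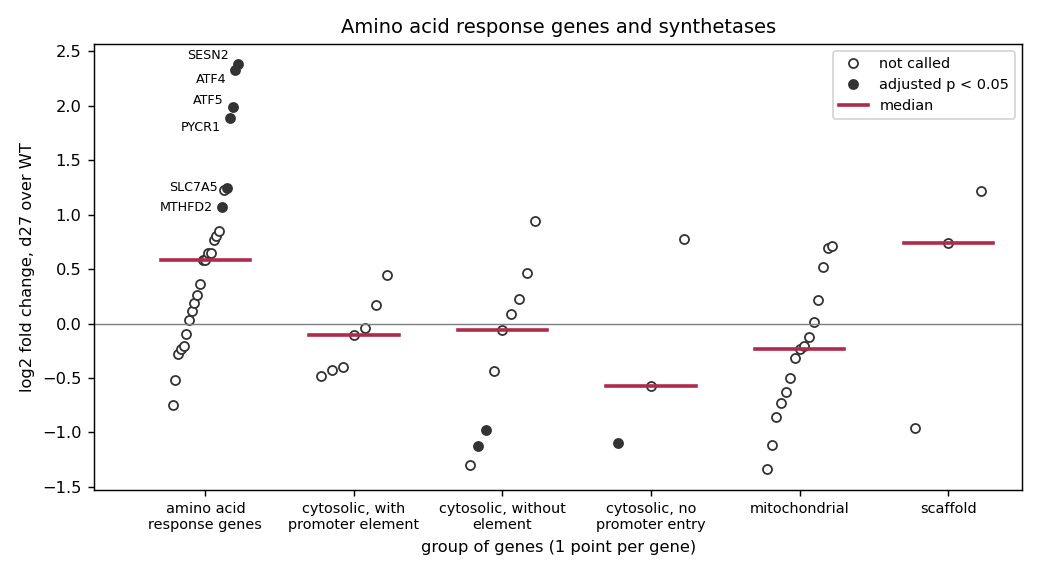
Log2 fold change of d27 over WT (y axis, 1 point per gene, bar at the median) for the amino acid response genes and for the synthetase and scaffold genes by class and promoter element (x axis), filled where the adjusted p is under 0.05. The 6 filled response genes lie between 1.07 and 2.38, and the 7 cytosolic genes with the element lie between -0.48 and 0.45.

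Other steps of tRNA use were read from further lists. None of the 8 cytosolic elongation factor genes tested was called by edgeR (2 higher and 2 lower at an unadjusted p under 0.05, and the same numbers by DESeq2), with a median log2 fold change of -0.58. EEF2, the translocase, was at -1.05 ± 0.37 and EEF1D at -0.94 ± 0.27, while EIF5A lay at 0.95 ± 0.30. Of 11 mitochondrial translation factor genes, 1 rose, the release factor MTRF1L (by 1.46), and of 10 tRNA charging partners 2 rose, DTD2 (by 2.32), which removes D-amino acids from tRNA, and GATC (by 1.08), a subunit of the mitochondrial glutamine amidotransferase. Of 21 tRNA processing genes 1 rose, TSEN15 (by 1.24), a subunit of the splicing endonuclease. These counts stand beside the 8.00% of all genes called higher, and 1 of 21 and 1 of 11 are near that share. None of these 3 lists had a gene that fell, and their medians were 0.40, 0.32 and 0.05. The calls of all 4 genes were lost without d27 replicate 1, with adjusted p between 0.124 and 0.258, and those of DTD2, GATC and TSEN15 also without WT replicate 2. GATC was also lost without d27 replicate 2. With library totals alone all 4 missed the threshold (adjusted p 0.0508 to 0.0613). With the offset that includes coding length GATC was at 0.23 (adjusted p 0.537), TSEN15 at 0.54 (0.142) and DTD2 at 1.58 (0.0556), and all 3 lost their call.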

How the data were processed

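The authors deposited raw read counts per gene, 1 table per library. The submitters' processing notes list HTSeq, DESeq2 and the build GRCh38 (per the submitters' processing notes, with no role given). Per the labels' protocols, RNA was depleted of ribosomal RNA and libraries were made with a strand-marking kit. Not given in the sources used here: aligner, annotation release and strand setting. HTSeq's summary entries were left out. The 4 libraries were fitted with edgeR 4.0.16 (TMM, filterByExpr with a minimum count of 10 and total of 15, robust quasi-likelihood, Benjamini-Hochberg over 14909 genes). DESeq2 1.42.0, other scalings and filters, a replicate block, GC and length offsets (loess, span 0.3) and leaving out each library were alternatives. Lengths and positions came from GENCODE 29 (58385 genes matched), with the APPRIS principal transcript as representative. Scripts were tested on simulated data. There the main fit called 17.9% of genes with a true 2-fold change, 95.5% with a 4-fold and 100% with an 8-fold change. The changed genes numbered only 67, 67 and 66, against 551 lower and 1192 higher in the data. None was of low level, and each simulated gene had the spread typical of its level. The recovery in the data may therefore differ. A gene that was not called may still differ by 2-fold or more, above all a low one such as EEF1E1 (1.22 ± 1.11) or SARS2 (-1.34 ± 0.70). Members and lists were chosen with earlier results of these data known. Named were the genes called, the 4 lowest and 4 highest not called, the 5 highest and 5 lowest per kb, partners of called genes and genes whose call changed under an alternative.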

Additional observations from a re-analysis of the deposited data

How the results depend on the processing

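In the main fit 3 members were lower and 0 higher. With DESeq2 the counts were 7 and 3 (all genes, 1118 lower and 1723 higher), with DESeq2 size factors 5 and 0, with library totals 0 and 0 (285 of all genes lower), with no filter 5 and 2 (all genes, 974 and 1888) and with at least 50 counts in 2 libraries 7 and 1 (959 of all genes lower). An offset for GC content and exon length gave 8 and 1 (all genes, 1016 lower and 1321 higher, against 551 and 1192 in the main fit), and the offset with coding and 3' UTR length 3 and 1. Leaving out 1 library moved the members from 0 to 9 lower and from 0 to 3 higher, and all genes from 71 to 2136 lower and from 697 to 2715 higher, with the extremes without d27 replicate 1 and without WT replicate 1. Without WT replicate 2 the members also had 0 lower.

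Replicate numbers were shared by the groups, and the same-numbered libraries' deviations correlated at 0.0962 over 14909 genes. With only 2 pairs, this value cannot tell whether same-numbered libraries also share a batch. The fit with a replicate block called 7 members lower and 3 higher (all genes, 1438 and 2137). With the block and the GC and exon length offset together it called 12 lower and 2 higher (all genes, 1858 and 1974) and 1 amino acid response gene lower.

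The cytosolic median of -0.11 ranged from -0.37 (without d27 replicate 2) to -0.0045 (without WT replicate 2) and was -0.33 with the GC and exon length offset and -0.011 with the coding length offset. The summed cytosolic log2 ratio of -0.23 ranged from -0.40 to -0.084 with 1 library left out, and the mitochondrial one of -0.44 from -0.57 to -0.29. The mitochondrial median of -0.24 ranged from -0.41 to -0.073 with 1 library left out, and was -0.45 with either offset and -0.41 with offset and block. The scaffold median of 0.74 was -0.16 with at least 50 counts, 0.31 and 0.24 with the offsets and 0.32 with offset and block, and lay between 0.30 (without WT replicate 2) and 0.94 with 1 library left out. Of 334 values of 26 named members under 13 alternatives, 255 kept direction and side of the threshold, 56 gained a call, 12 lost it and 11 changed sign. Those were AARS1 (0.21), EARS2 (0.11), KARS1 (0.083) and WARS2 (0.69) without WT replicate 2, KARS1 (0.23) and FARS2 (0.026) without d27 replicate 1, WARS2 (0.082) without d27 replicate 2, IARS1 (0.026), KARS1 (0.059) and FARS2 (0.080) with the coding length offset, and KARS1 with no filter (0.00013). With no filter the median of all genes was 0.31. With 1 library left out the lowest values were -0.77 (AARS1), -0.37 (KARS1), -0.59 (EARS2) and -0.74 (WARS2). The causes of these changes were not tested. Depth was not a limit for the 3 called members, with 897 counts or more per library, but was one for SARS2, EEF1E1 and VARS2.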

Other observations

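Some members overlap other genes in their exons, and HTSeq leaves out reads that fall on more than 1 gene. SARS2 shares 46.2% of its exon bases with the same-strand gene AC011455.2, VARS2 shares 22% with GTF2H4, and EEF1E1 shares 18.7% with the read-through gene EEF1E1-BLOC1S5. AIMP2 shares 28.9% with EIF2AK1 and AIMP1 11.6% with TBCK, both on the opposite strand, and HARS1 and HARS2 share 437 bases where they start head to head. Since the strand setting is not given in the sources used here, how far such reads are lost or mixed was not tested.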
